A study of Mus musculus with 6 samples.

Results

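CX3CR1high and CX3CR1low dermal macrophages, the ends of the CX3CR1 range in mouse skin, were compared on arrays of gene expression. The comparison rested on the 4 samples whose titles name these subsets, 2 of each, out of 6 samples in all. The other 2 samples were CX3CR1int (intermediate) cells, which helped to estimate the spread and are given side by side. All cells came from the ear skin of C57Bl/6 mice aged 2 weeks with the genotype Cx3cr1+/gfp. In every group, therefore, 1 allele of Cx3cr1 was replaced by the gene of green fluorescent protein, and no group had both working alleles. Macrophages were sorted by flow cytometry, and each sample pooled the cells of 4 mice. The samples came from 2 independent litters, and the labels do not say that a replicate number stands for the same litter in every subset. P-values of the main fit measure the spread between pools that is left once a shared difference of replicates 1 and 2 is removed. This spread is estimated over all subsets, with 2 pools each, and no single mouse was measured.

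Macrophages of the dermis take up debris and pathogens, present antigen and guard vessels and nerves. CX3CR1 binds the chemokine fractalkine and is found on monocytes, microglia and part of the tissue macrophages. In skin, macrophages with much CX3CR1 are known from the neighbourhood of nerves, and macrophages rich in lectins and scavenger receptors from the neighbourhood of vessels. Monocytes that enter the dermis also begin with CX3CR1 and change its level as they mature.

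Values below are log2 signals of the normalised arrays, with replicate 1 before replicate 2, and differences are CX3CR1high minus CX3CR1low on the same scale. The arrays had medians between 4.84 and 4.94. Of 22180 genes with a probe set of their own, 15529 were bright enough to be tested, and the median difference over them was 0.005. The macrophage genes Adgre1, Csf1r, Cd68, Fcgr1 and Mertk were present in both subsets and did not pass the test. Adgre1, which encodes F4/80, stood at 10.89 and 10.75 in CX3CR1low and 10.63 and 10.85 in CX3CR1high samples. Csf1r, the receptor of the macrophage growth factor, stood at 11.58 and 11.15 against 11.29 and 11.16. Cx3cr1 was at 5.87 and 7.01 in CX3CR1low, at 7.05 and 6.84 in CX3CR1int and at 10.55 and 9.51 in CX3CR1high samples, which checks the sort and is no finding. Xist was at 7.39 to 7.97 in replicates 1 and 10.99 to 11.39 in replicates 2, and the Y-linked Eif2s3y at 7.76 to 8.27 and 2.99 to 3.72, so the replicate number also separates pools of different sex make-up. The model held the replicate number as a term, as a block.

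With this block 154 genes were called at an adjusted p below 0.05, 0.992% of those tested. Of them 76 were higher in CX3CR1high cells (0.489%) and 78 lower (0.502%). The sign was the same in both replicates for all 154, and the samples of both subsets did not overlap for 152, the exceptions being Rnase2a and Rsad2. By size, 137 calls were at least 2-fold and 17 were smaller. The CX3CR1int mean lay nearer to CX3CR1low than to CX3CR1high for 64 of the 76 rises and 58 of the 78 falls. Without the block 62 genes were called (0.399%), all of them among the 154, so 92 calls exist with the block alone. With any 1 of the 6 samples left out, limma with the block called 0 to 8 genes, although 1102 to 1581 genes had an unadjusted p below 0.05. The 8 calls were those without CX3CR1low replicate 2, and all 8 were among the 154. Without the block, leaving out a sample gave 0 to 39 calls.

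**Figure D1:**
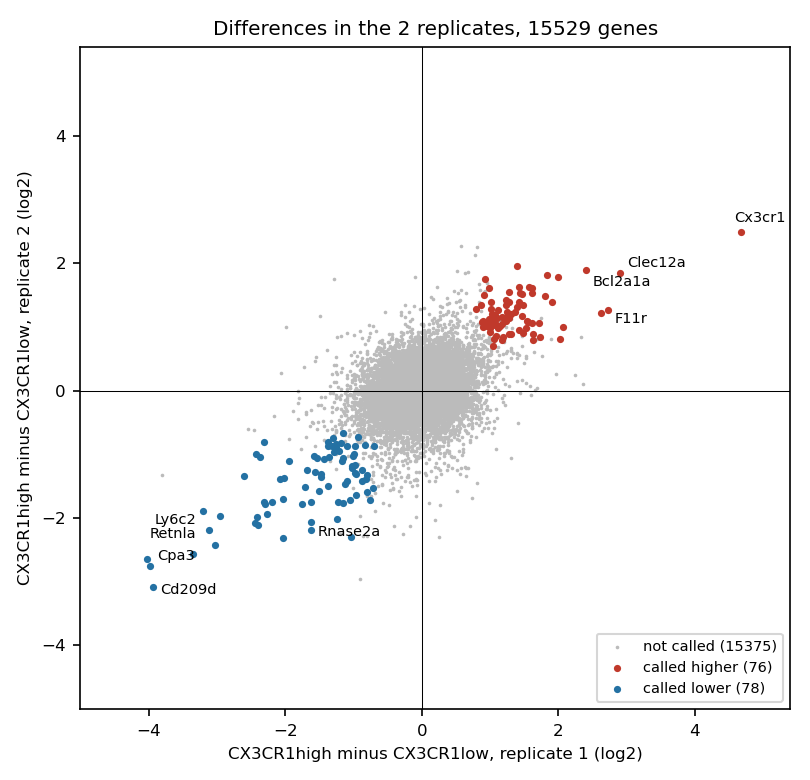
Each point is a gene, placed by its CX3CR1high minus CX3CR1low difference in replicate 1 (x axis) and replicate 2 (y axis), in log2 units. The 76 genes called higher (red) lie above 0 and the 78 called lower (blue) below 0 in both replicates, and 15375 genes were not called (grey).

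Surface receptors were among the genes that rose in CX3CR1high cells. Of 21 integrin genes tested 3 were called higher and 0 lower, with 11 above 0, 10 below and a median difference of 0.06. Of 23 junction and immunoglobulin-type adhesion genes 1 was called higher and 0 lower. The share over all genes, to set beside these and later counts of calls, was 0.489% higher and 0.502% lower. Itgav, the alpha chain of receptors for vitronectin and latent TGF-beta, stood at 7.93 and 8.07 in CX3CR1low, at 8.60 and 7.94 in CX3CR1int and at 9.84 and 9.47 in CX3CR1high samples. It rose 3.15-fold (difference 1.66 ± 0.21, SE, adjusted p = 0.0123), and a second, dimmer probe set differed by 0.665. Its partner Itgb5 was at 6.66 and 6.69 in CX3CR1low, at 7.71 and 7.10 in CX3CR1int and at 8.08 and 8.32 in CX3CR1high cells, a rise of 2.88-fold (adjusted p = 0.0239). Itga6, part of the laminin receptors, went from 5.88 and 6.16 through 5.93 and 6.03 to 7.50 and 7.77, so that its CX3CR1int samples lay with the CX3CR1low ones. F11r, a junctional adhesion molecule, was at 5.54 and 6.27 in CX3CR1low and 8.26 and 7.54 in CX3CR1high cells (2.0 ± 0.30, SE, adjusted p = 0.0246). The integrins of leukocytes did not share this: Itgb2 differed by -0.27 and Itgam by -0.14, and neither passed. Itgax, which encodes CD11c, was at 4.43 and 4.58 against 5.42 and 5.41 without passing (adjusted p = 0.0978), although the samples did not overlap. Cadm1, another adhesion gene, lay just above the threshold with a difference of 1.12 (adjusted p = 0.0541). Alcam differed by 1.0 without passing (adjusted p = 0.113).

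Of 31 immunoglobulin-type receptor genes tested, many of which restrain immune cells, 3 were called higher and 0 lower. By sign 17 were above 0 and 14 below, with a median difference of 0.10. Havcr2, which encodes the inhibitory receptor TIM-3, was at 6.47 and 6.51 in CX3CR1low, at 6.85 and 6.93 in CX3CR1int and at 7.95 and 7.85 in CX3CR1high samples (1.41 ± 0.18, SE, adjusted p = 0.0123). Lair1, a receptor that binds collagen and inhibits leukocytes, was at 6.02 and 5.48 against 6.95 and 7.23 (adjusted p = 0.0319). Slamf9, of the SLAM receptors, was at 8.40 and 7.87 against 9.55 and 8.89 (adjusted p = 0.0239). Each of the 3 genes was higher in both CX3CR1high samples than in either CX3CR1low sample. Other inhibitory receptors pointed down without passing, Cd200r1 at 7.62 and 8.04 against 6.23 and 7.42 (adjusted p = 0.0966) and Pirb at 9.79 and 9.65 against 9.05 and 9.33 (adjusted p = 0.243). Stap1, an adaptor of tyrosine kinase signalling, was the only called gene among 19 of Fc receptors and their signalling, at 7.18 and 6.84 in CX3CR1low, at 7.89 and 7.71 in CX3CR1int and at 9.02 and 8.66 in CX3CR1high cells (1.83 ± 0.17, SE, adjusted p = 0.00484). The brightest Fc receptor genes did not pass: Fcgr3 differed by -0.16 and Fcgrt, which recycles antibody, by -0.49. Axl, a receptor for apoptotic cells of the TAM family, was at 6.44 and 6.79 against 8.51 and 7.79 (1.53 ± 0.25, SE, adjusted p = 0.0305). Mertk, the TAM receptor usual in macrophages, was at 8.07 and 8.33 against 7.67 and 8.23 and did not pass. Gas6, a ligand of both receptors, differed by -0.62 without passing. Pros1, another ligand within the TAM family, fell from 10.30 and 10.26 to 8.62 and 9.02 (-1.46 ± 0.19, SE, adjusted p = 0.014).

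Lectin receptors divided by gene. Of 17 C-type lectin genes outside the Cd209 cluster 2 were called higher and 2 lower, with a median difference of 0.00. Clec12a, an inhibitory receptor for uric acid crystals, was at 6.84 and 7.49 in CX3CR1low, at 7.56 and 7.68 in CX3CR1int and at 9.74 and 9.34 in CX3CR1high cells. Cd69, a marker of activation that holds leukocytes in tissue, was at 4.74 and 5.04 against 6.05 and 6.24, with CX3CR1int samples at 4.54 and 4.75 (1.25 ± 0.17, SE, adjusted p = 0.0166). Clec10a and Mgl2, which encode the galactose-binding lectins MGL1 and MGL2, moved the other way. Clec10a was at 8.04 and 7.97 against 5.96 and 6.58 (-1.74 ± 0.21, SE, adjusted p = 0.00995), and Mgl2 at 9.33 and 9.04 against 8.23 and 8.18 (adjusted p = 0.0419). In the Cd209 cluster 3 of 6 genes tested were called lower, with a median of -1.27. Cd209b, a relative of DC-SIGN that binds microbial sugars, went from 7.26 and 6.82 to 5.06 and 5.07. Its neighbours Cd209a, with a difference of -0.21, and Cd209c, with 0.28, did not pass. Genes of this cluster, and the pair Clec10a and Mgl2, are similar in sequence, and how far their probes share signal was not tested.

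Receptors for chemokines and members of the TNF family gave a few further calls. Of 30 chemokine and peptide receptor genes 3 were called higher, Cx3cr1 among them, and 0 lower. Ccr7, the receptor that guides cells to lymph nodes, was at 5.74 and 5.64 in CX3CR1low, at 6.83 and 6.73 in CX3CR1int and at 7.29 and 6.72 in CX3CR1high samples (1.31 ± 0.20, SE, adjusted p = 0.0239). Here the CX3CR1int samples reached the level of CX3CR1high replicate 2. Ccrl2, which binds chemerin without signalling of its own, was at 8.52 and 8.59 against 9.74 and 9.74 (adjusted p = 0.026). Tnfsf18, whose product GITRL costimulates T cells, was at 5.33 and 5.78 in CX3CR1low, at 5.25 and 5.95 in CX3CR1int and at 7.13 and 7.27 in CX3CR1high cells. Icosl, the ligand of the costimulator ICOS, was at 6.65 and 6.35 against 8.19 and 7.44 (1.31 ± 0.19, SE, adjusted p = 0.0236). Among 24 genes of the TNF superfamily 13 were higher without overlap, against 19.8% of all genes tested, but Tnfsf18 was the only one called higher. Tnfrsf17, the receptor BCMA of plasma cells, was the only one called lower, from 6.83 and 5.93 to 4.56 and 4.0, at least 4.13-fold. Genes of antigen presentation did not pass, H2-Ab1 at 10.98 and 11.37 against 11.40 and 11.33.

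Among genes of secreted factors, some chemokines and interleukins were called higher. Of 27 chemokine genes tested 5 were called higher and 2 lower, and of 21 interleukin genes 3 were called higher and 0 lower. Without the block 1 of these chemokine genes, Ccl22, was still called, as were all 3 interleukin genes. The median differences of these lists were 0.04 and 0.17, and 14 chemokine genes had a difference above 0 and 13 below. With keratinocyte and fibroblast markers as a covariate beside the block, a fit called the marker covariate from here on, the chemokine median was 0.33. The mean of these markers was 6.73 and 7.33 in CX3CR1low and 6.23 and 6.4 in CX3CR1high samples, so the covariate itself differs by subset. Values from this fit, here and below, show sensitivity to the model and are not corrected levels. Cx3cr1 differed by 6.88 in it, beside 3.59 in the main fit. Ccl22, which draws T cells through CCR4, was at 5.94 and 6.90 in CX3CR1low, at 6.90 and 6.93 in CX3CR1int and at 8.57 and 8.12 in CX3CR1high samples (1.93 ± 0.30, SE, adjusted p = 0.026). Ccl5, a chemokine that draws T cells and monocytes, was at 9.0 and 10.23 against 10.73 and 11.07 (adjusted p = 0.026). Its CX3CR1low samples differed by more than 1 log2 unit between replicates. Cxcl10, an interferon-induced attractant of T cells, was at 8.17 and 8.78 against 9.29 and 9.80 (adjusted p = 0.0239). Cxcl16, which also serves as a scavenger receptor, was at 10.08 and 9.42 against 11.04 and 10.44 (adjusted p = 0.018). Ppbp, a chemokine best known from platelets, was at 8.05 and 7.37 against 9.06 and 8.76 (adjusted p = 0.0239).

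Both genes of interleukin-1 were bright in all samples and rose by moderate amounts. Il1b was at 10.76 and 11.03 in CX3CR1low, at 11.27 and 11.11 in CX3CR1int and at 11.80 and 11.74 in CX3CR1high cells (0.88 ± 0.13, SE, adjusted p = 0.0245). Il1a was at 9.61 and 9.47, then 9.94 and 10.01, then 10.68 and 10.66 (1.13 ± 0.14, SE, adjusted p = 0.0101). For both genes the CX3CR1int samples lay between the others. Il10, the anti-inflammatory cytokine, rose as well, from 10.33 and 9.96 to 11.36 and 11.16 (1.11 ± 0.15, SE, adjusted p = 0.0174), with CX3CR1int samples at 10.13 and 10.28. Other inflammatory genes did not pass. Tnf differed by 0.15, Il6 by -0.57 and Il1rn, the natural antagonist of interleukin-1, by 0.33. The brightest chemokines, Ccl2 at 12.68 and 12.66 against 12.64 and 12.66 and Ccl7 with a difference of -0.17, did not pass either.

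A pair of chemokine genes fell. Ccl6, a CCR1 ligand, was at 8.44 and 9.59 in CX3CR1low, at 8.04 and 9.66 in CX3CR1int and at 6.73 and 8.08 in CX3CR1high samples. Its replicates differed by over 1 log2 unit in each subset, while the difference between subsets was -1.61 ± 0.18 (SE, adjusted p = 0.00698). Ccl8, which draws monocytes and T cells, was at 11.85 and 11.86 against 9.54 and 11.06 (-1.55 ± 0.28, SE, adjusted p = 0.0424). Ccl8 fell outside the naming rule and was chosen after its values were seen.

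Feedback genes of NF-kB, the transcription factor downstream of interleukin-1 and Toll-like receptors, leaned upward. Of 28 tested, 19 differed upward, against 51.3% of all genes, and 13 did so without overlap, against 19.8%. The median difference was 0.18, and 1 gene was called. That gene was Tnip3, a binding partner of the inhibitor A20, at 8.03 and 8.14 in CX3CR1low, at 9.29 and 8.56 in CX3CR1int and at 9.65 and 9.67 in CX3CR1high cells (1.57 ± 0.22, SE, adjusted p = 0.018). Tnfaip3, which encodes A20, differed by 0.38 and Nfkbia, the inhibitor of NF-kB, by 0.17, and neither passed. The motif bound by NF-kB (GGGA, any 4 bases, then CC, both strands) was searched in RefSeq promoters of build GRCm38.p6, 250 bases before to 50 after a gene's start. Of 11 chemokine, interleukin and NF-kB genes called in either direction 8 had a promoter in that table. Of these 3 held the motif, beside 20.7% of 32851 promoters. Of the 3 called cell division genes described below, 2 held it too, E2f8 and Ndc80. The promoters of the former 3 genes are shown because they belong to genes that rose together, with the matched letters in capitals, on the gene's strand. They are those of Ccl22 (chr8:94745434-94745733, plus strand), Cxcl10 (chr5:92348840-92349139, minus strand) and Tnip3 (chr6:65590148-65590447, plus strand).
Ccl22: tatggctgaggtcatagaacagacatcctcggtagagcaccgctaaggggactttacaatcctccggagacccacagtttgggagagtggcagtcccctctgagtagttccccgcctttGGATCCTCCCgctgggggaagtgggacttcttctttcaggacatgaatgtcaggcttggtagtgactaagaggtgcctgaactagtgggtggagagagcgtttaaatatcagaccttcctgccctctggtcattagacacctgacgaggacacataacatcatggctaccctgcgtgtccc
Cxcl10: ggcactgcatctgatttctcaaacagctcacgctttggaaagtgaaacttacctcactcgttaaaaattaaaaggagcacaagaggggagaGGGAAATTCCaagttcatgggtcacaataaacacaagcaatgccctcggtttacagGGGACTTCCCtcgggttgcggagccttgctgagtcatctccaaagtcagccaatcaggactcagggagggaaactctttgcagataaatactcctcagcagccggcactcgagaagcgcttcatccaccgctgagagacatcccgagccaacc
Tnip3: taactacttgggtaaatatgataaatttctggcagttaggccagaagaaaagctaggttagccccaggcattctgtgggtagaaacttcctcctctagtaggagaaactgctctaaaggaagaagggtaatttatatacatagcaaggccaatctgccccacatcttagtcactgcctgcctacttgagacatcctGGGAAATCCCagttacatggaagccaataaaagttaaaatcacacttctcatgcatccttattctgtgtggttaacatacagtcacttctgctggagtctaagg
The match of Ccl22 began 131 bases before the start and read in the reverse direction. Cxcl10 had matches 159 and 103 bases before the start, and Tnip3 had its match 54 bases before. The last match of Cxcl10 and that of Tnip3 fit the motif on both strands. Without the motif were the promoters of Il1a, Il1b and Ppbp, which rose, and of Ccl6 and Ccl8, which fell. A match is a description of letters and not a measured binding site.

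Enzymes that cut matrix rose in a pair. Of 34 matrix proteases and inhibitors 2 were called higher and 0 lower. Mmp13, a collagenase, was at 5.81 and 6.39 in CX3CR1low, at 5.68 and 5.67 in CX3CR1int and at 7.81 and 8.17 in CX3CR1high samples (1.89 ± 0.20, SE, adjusted p = 0.00663). Mmp14, the membrane-bound protease that activates other members of its family, was at 6.83 and 7.22, then 7.20 and 7.10, then 8.44 and 8.28 (1.33 ± 0.20, SE, adjusted p = 0.0239). For both, the CX3CR1int samples were no higher than the highest CX3CR1low sample. The inhibitor gene Timp1 was at 9.01 and 8.43 against 7.44 and 7.56 without passing (-1.22, adjusted p = 0.0818). The median difference of the list was -0.11, so the 2 calls stood apart from most members. Sema4d, a semaphorin of immune cells, was at 5.31 and 5.48 against 6.48 and 6.53 (1.11 ± 0.18, SE, adjusted p = 0.0272). Cpd, a carboxypeptidase of the secretory pathway, was at 8.58 and 8.31 against 9.63 and 9.43 (adjusted p = 0.0188).

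Within the cell, single genes of several pathways rose. Bcl2a1a, a survival gene of the Bcl2 family, was at 8.06 and 8.40 in CX3CR1low, at 9.13 and 9.0 in CX3CR1int and at 10.46 and 10.30 in CX3CR1high cells. It was the only one of 21 survival and death genes called, and near-identical genes of its cluster could share its probes. Mcl1, another survival gene, was at 11.63 and 11.62 against 11.47 and 11.48 and did not pass. Of 23 genes of eicosanoids and platelet-activating factor 2 were called higher. Ptgs2, the inducible cyclooxygenase COX-2, was at 8.75 and 9.84 in CX3CR1low, at 9.62 and 10.08 in CX3CR1int and at 10.38 and 10.73 in CX3CR1high samples (1.26 ± 0.19, SE, adjusted p = 0.0245). Lpcat2, which makes platelet-activating factor, was at 5.66 and 5.38 against 7.23 and 7.01. Rgs1, a brake on signalling of chemokine receptors, was at 7.44 and 7.71 against 8.84 and 9.02 (1.35 ± 0.22, SE, adjusted p = 0.0303). Skil, an inhibitor of SMAD proteins, was at 7.76 and 6.74 against 8.67 and 8.25 (1.21 ± 0.20, SE, adjusted p = 0.0303). Stat4, which carries signals of interleukin-12, was near the dim end at 4.87 and 4.44 against 6.11 and 5.54 (adjusted p = 0.0285). Slc38a1, an importer of glutamine, was at 8.0 and 8.12 against 9.12 and 9.10 (1.05 ± 0.17, SE, adjusted p = 0.029). Slc7a11, the cystine importer, differed by 1.22 without passing (adjusted p = 0.0704).

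**Figure D2:**
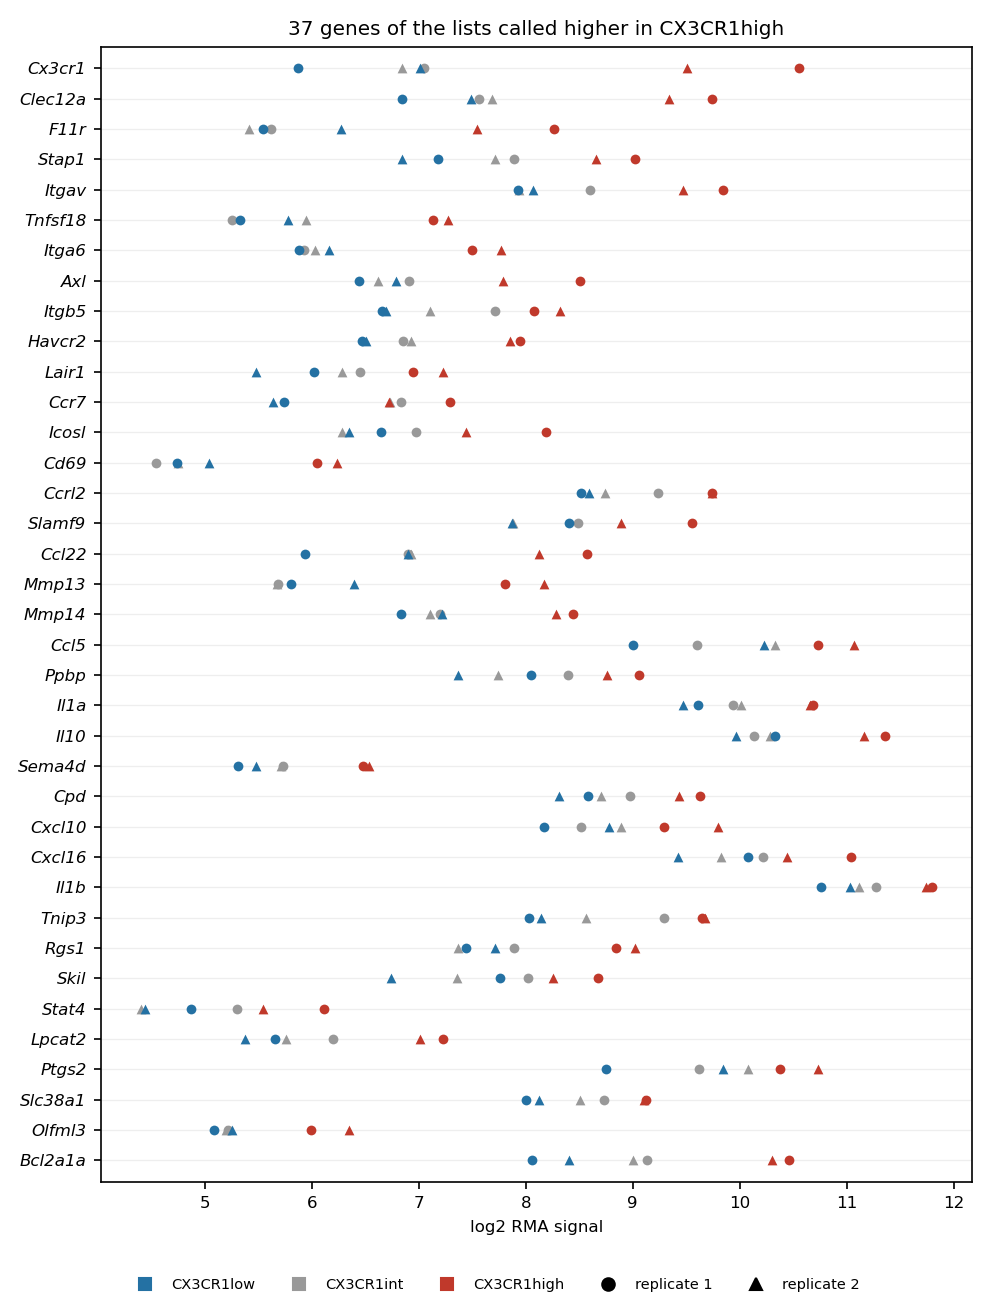
Log2 signals of 37 called genes in each sample, for lists of surface receptors, secreted factors, signalling, metabolism, the resident programme and cell death (circles, replicate 1, triangles, replicate 2). Only called genes without overlap were drawn. By that choice both CX3CR1high samples (red) lie to the right of both CX3CR1low samples (blue), with CX3CR1int samples in grey.

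Genes of cell division leaned upward almost without exception, though few passed the test. They were grouped as genes of mitosis, kinetochore and spindle and genes of DNA replication. Of 48 tested mitosis genes 47 differed upward and 41 did so without overlap, and 2 were called. Over all genes 51.3% differed upward and 19.8% did so without overlap. The 33 tested replication genes all had a difference above 0, 24 of them without overlap, and 1 was called. Without the block 1 mitosis gene and 0 replication genes were called. Medians were 0.68 for mitosis and 0.34 for replication, beside 0.005 for all genes. By replicate the mitosis median was 0.35 and 0.95, and the replication median 0.26 and 0.57, so both were larger in replicate 2. Over both lists, 70 of 81 genes were above 0 in both replicates, beside 28.7% of all genes. Genes of the same cycle move together within a sample, so these counts do not stand for independent observations.

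Ndc80, a kinetochore protein that holds microtubules, was at 5.74 and 5.31 in CX3CR1low, at 5.61 and 5.66 in CX3CR1int and at 7.14 and 7.27 in CX3CR1high samples (1.68 ± 0.20, SE, adjusted p = 0.00995). Kif11, the motor that separates spindle poles, was at 5.93 and 6.08, then 6.41 and 6.54, then 6.80 and 7.42 (1.10 ± 0.20, SE, adjusted p = 0.0427). E2f8, a transcription factor of the late cell cycle, was at 5.12 and 5.69, then 5.70 and 5.96, then 6.75 and 6.49 (1.22 ± 0.22, SE, adjusted p = 0.0483). For the last pair of genes the CX3CR1int samples lay between or near the others, whereas Ndc80 was high in CX3CR1high samples alone of these 6. The proliferation marker Mki67 was at 8.46 and 8.39 against 9.11 and 9.23 (0.74, adjusted p = 0.19). Top2a, a topoisomerase of dividing cells, was at 7.22 and 7.41 against 8.13 and 8.96 (1.23, adjusted p = 0.112). Cenpe, a kinetochore motor, differed by 1.17 (adjusted p = 0.0726), and Pcna, the clamp of DNA replication, by 0.12. Of 24 genes of growth arrest and p53 limma called none, and 1 had an unadjusted p below 0.05, beside 1752 of all 15529 genes tested. Cdkn1a was at 11.97 and 11.78 against 12.07 and 11.69. As the samples are bulk RNA, a larger share of dividing cells and more such RNA per cell cannot be told apart, here and for every gene below. With the marker covariate the medians were 0.11 for mitosis and -0.07 for replication.

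Promoters of genes of late cell cycle often hold the cell cycle homology region (TTTGAA) and a CCAAT box. All 3 called genes held the first and 2 held the second, searched on both strands in the same windows, beside 17.9% and 37.4% of all promoters, and 6.95% held both. Their promoters are shown because these genes alone of both lists were called, with TTCAAA and ATTGG, the reverse complements of those motifs, in capitals. They are those of Kif11 (chr19:37376132-37376431, plus strand), E2f8 (chr7:48881547-48881846, minus strand) and Ndc80 (chr17:71526808-71527107, minus strand).
Kif11: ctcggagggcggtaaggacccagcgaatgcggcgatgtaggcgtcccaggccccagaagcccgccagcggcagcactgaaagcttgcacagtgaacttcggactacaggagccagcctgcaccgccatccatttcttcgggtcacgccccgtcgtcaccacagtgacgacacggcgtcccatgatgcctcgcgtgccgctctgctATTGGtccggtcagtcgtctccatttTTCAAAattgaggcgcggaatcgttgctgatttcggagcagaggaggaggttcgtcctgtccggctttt
E2f8: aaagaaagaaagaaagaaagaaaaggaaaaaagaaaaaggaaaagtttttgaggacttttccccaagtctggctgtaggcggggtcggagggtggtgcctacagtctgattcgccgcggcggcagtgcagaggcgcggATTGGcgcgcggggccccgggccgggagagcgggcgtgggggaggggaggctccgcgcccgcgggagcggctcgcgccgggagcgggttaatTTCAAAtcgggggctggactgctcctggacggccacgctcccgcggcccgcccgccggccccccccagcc
Ndc80: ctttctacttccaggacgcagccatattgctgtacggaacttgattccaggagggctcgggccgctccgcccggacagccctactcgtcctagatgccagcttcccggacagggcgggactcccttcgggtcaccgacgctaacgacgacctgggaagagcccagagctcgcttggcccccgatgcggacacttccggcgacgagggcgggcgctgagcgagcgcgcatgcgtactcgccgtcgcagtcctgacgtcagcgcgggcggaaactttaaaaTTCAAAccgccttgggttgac
The first motif began 19 bases before the start in Kif11 and 20 bases before it in E2f8, and at base 30 of the transcript in Ndc80. The second began 45 bases before the start in Kif11 and 112 before it in E2f8.

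**Figure D3:**
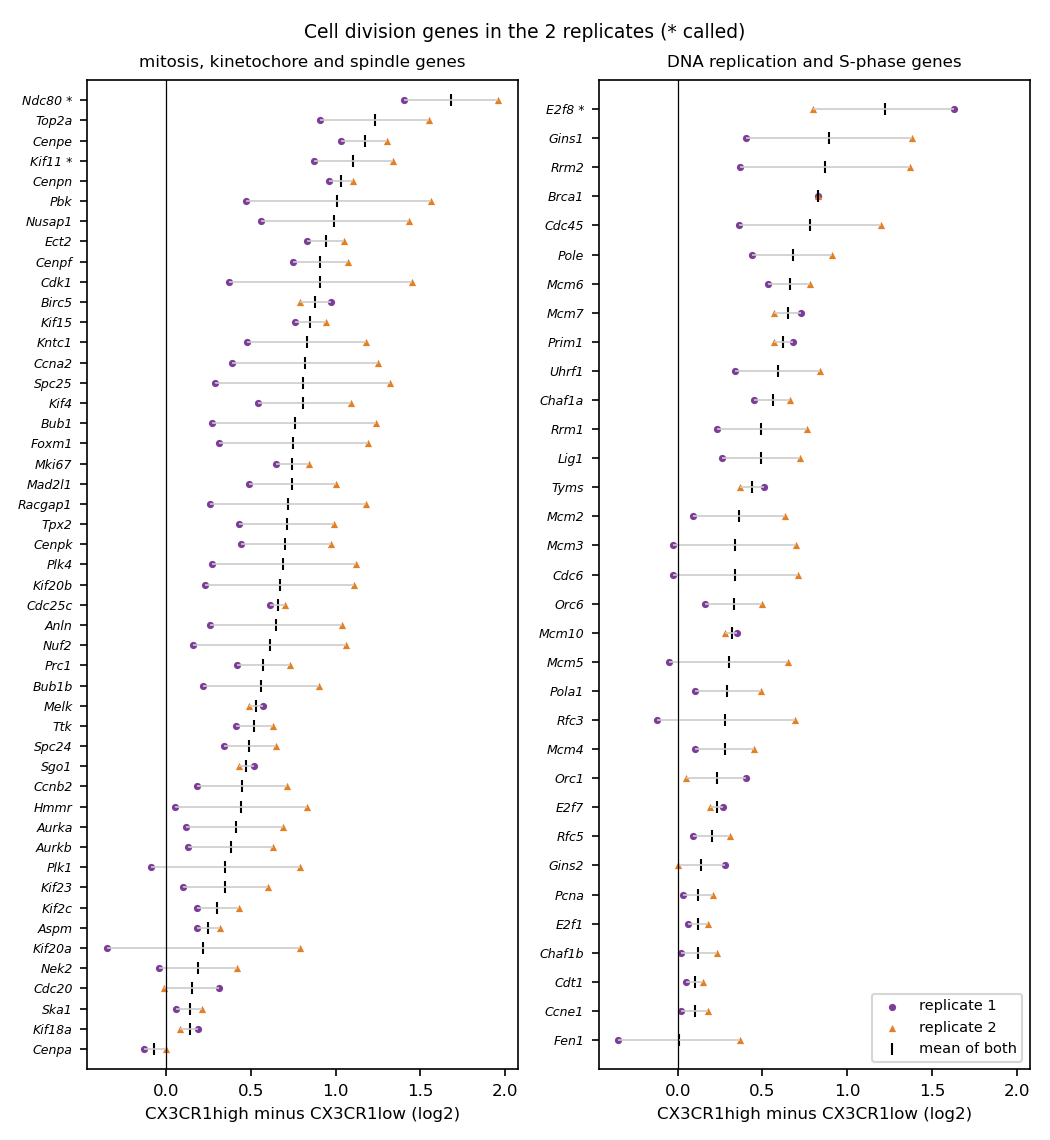
Difference CX3CR1high minus CX3CR1low (log2) of each tested gene of mitosis (left, 48 genes) and DNA replication (right, 33 genes), in replicate 1 (circles), replicate 2 (triangles) and as their mean (bars). Nearly all means lie right of 0, and asterisks mark the 3 called genes Ndc80, Kif11 and E2f8.

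Complement genes mostly had differences below 0. Of 16 tested, 14 had a difference below 0, against 48.5% of all genes, and 8 were lower without overlap, against 18.4%. Called lower were 4, 2 of them also without the block, and 0 were called higher. The median was -0.24, and -0.91 with the marker covariate. C4b, the fourth component, was at 9.94 and 9.51 in CX3CR1low, at 8.47 and 9.35 in CX3CR1int and at 6.59 and 6.95 in CX3CR1high samples. Cfb, the protease of the alternative pathway, was at 8.72 and 8.68, then 8.11 and 8.84, then 6.29 and 7.69 (-1.71 ± 0.29, SE, adjusted p = 0.0367). Properdin, encoded by Cfp, which stabilises that protease complex, was at 9.82 and 9.76 against 8.44 and 8.96 (-1.09 ± 0.18, SE, adjusted p = 0.029). Cd55, a regulator that dissolves the complex, was at 5.97 and 5.87 against 4.35 and 4.12, a mean under the dim limit of 4.335 in CX3CR1high cells, and fell at least 3.0-fold. Components and a regulator thus fell side by side. C1qa and C1qb, which start the classical pathway and are typical of macrophages, were not called, with differences of -0.09 and -0.10. The receptor genes C5ar1 and C3ar1 were not called either, with -0.13 and -0.01.

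Enzymes and receptors of the cell surface made up a further part of the falls. Of 10 surface peptidase genes 2 were called lower and 1 higher, the latter being Cpd. Anpep, aminopeptidase N or CD13, was at 10.67 and 10.68 in CX3CR1low, at 10.10 and 10.43 in CX3CR1int and at 8.65 and 9.31 in CX3CR1high samples (-1.70 ± 0.17, SE, adjusted p = 0.005). Enpep, aminopeptidase A, was at 8.27 and 7.20, then 6.51 and 7.19, then 5.06 and 5.31. Adgrg1, an adhesion receptor coupled to G proteins, was at 8.39 and 8.57, then 7.77 and 8.46, then 5.43 and 6.6 (-2.46 ± 0.24, SE, adjusted p = 0.00484). Among 39 cytokine and growth factor receptor genes 2 were called lower, and Axl was the 1 called higher. Gfra2, the receptor of neurturin, was at 9.09 and 8.34, then 8.59 and 8.37, then 6.80 and 6.56 (-2.04 ± 0.20, SE, adjusted p = 0.00484). Egfr, the receptor of epidermal growth factor, was at 8.90 and 8.56 against 7.64 and 7.72 (-1.05 ± 0.18, SE, adjusted p = 0.0399). Hbegf, a ligand of that receptor, differed by -0.95 without passing (adjusted p = 0.161). For Gfra2 and Egfr the CX3CR1int samples lay within or close to the range of the CX3CR1low samples.

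Genes of the resident, scavenging type of macrophage leaned downward with few calls. Of 22 scavenger and perivascular-type genes 17 had a difference below 0, against 48.5% of all genes, and 1 was called. Their median was -0.27, and -1.18 with the marker covariate. Cd163, the scavenger receptor of haemoglobin complexes, was at 10.94 and 10.94 in CX3CR1low, at 10.79 and 10.92 in CX3CR1int and at 9.79 and 10.28 in CX3CR1high samples (-0.91 ± 0.15, SE, adjusted p = 0.0305). Folr2, a folate receptor of the same cells, was at 10.90 and 10.68 against 9.87 and 10.14 without passing (adjusted p = 0.0891). Mrc1 and Lyve1, which mark these macrophages, differed by -0.10 and 0.20. Retnla, a product of alternatively activated macrophages, was at 11.71 and 11.82, then 10.92 and 11.60, then 8.68 and 9.40. Of 17 genes of alternative activation 3 were called lower, Retnla, Clec10a and Mgl2, and 1, Ccl22, higher. Ms4a8a, of the MS4A membrane proteins, was at 6.85 and 6.97 against 4.41 and 4.90, the only call among 10 genes of its family. Among 19 genes known from microglia and nerve-associated macrophages, Ccrl2 and Olfml3 were called higher and Adgrg1 lower, besides Cx3cr1, whose rise the sort fixed. By sign 15 of these 19, Cx3cr1 included, were above 0, against 51.3% of all genes, with a median of 0.23. Without overlap 9 were higher and 3 lower, against 19.8% and 18.4% of all genes. Olfml3 was at 5.09 and 5.25, then 5.22 and 5.2, then 5.99 and 6.35 (1.0 ± 0.18, SE, adjusted p = 0.0458). P2ry12, the purine receptor of microglia, differed by 0.04.

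Iron and lysosome genes mostly had small differences below 0. Of 19 genes of iron and heme 17 were below 0 and 12 were lower without overlap, with a median of -0.22 and 1 call, Cd163. Over all genes 48.5% were below 0 and 18.4% lower without overlap. Hmox1, which breaks down heme, was at 12.75 and 12.72 against 12.68 and 12.65. Slc40a1, the exporter of iron, was at 8.09 and 8.70 against 7.22 and 7.92 (-0.82, adjusted p = 0.0981). Of 26 lysosomal genes 22 were below 0 and 19 lower without overlap, beside the same shares of all genes, with a median of -0.17. Ctsk, a protease that digests collagen, was the only one called, at 8.12 and 7.75, then 7.23 and 7.16, then 5.75 and 6.71 (-1.71 ± 0.29, SE, adjusted p = 0.0367). Ctsb and Ctsd, the major lysosomal proteases, differed by -0.15 and 0.01. With the marker covariate the medians were -0.70 for iron and heme and -0.69 for lysosomal genes. Of 24 genes of cholesterol and fatty acid synthesis Scd1, a desaturase, was the only one called, at 6.77 and 7.77 against 5.73 and 5.47. By sign 16 of these 24 genes were below 0, as were 18 of 25 genes of lipid uptake, storage and export, with medians of -0.15 and -0.09, and of -0.46 and -0.35 with the marker covariate. Pltp, which transfers phospholipids, was at 11.15 and 10.94 against 10.21 and 10.21 (-0.83 ± 0.13, SE, adjusted p = 0.0245). Dnm1, a dynamin that pinches off vesicles, was at 8.79 and 8.41, then 7.66 and 7.89, then 6.37 and 6.42 (-2.21 ± 0.20, SE, adjusted p = 0.00484). Gda, a guanine deaminase, was at 8.76 and 8.80 against 7.22 and 7.74.

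Interferon response genes were mixed. Of 26 tested, 2 were called lower and 1, Cxcl10, higher, and 17 had a difference below 0, against 48.5% of all genes. Without the block 0 of the 26 were called. Ifitm3, which blocks the entry of viruses, was at 10.82 and 11.07 in CX3CR1low, at 10.67 and 11.16 in CX3CR1int and at 9.84 and 10.21 in CX3CR1high samples (-0.92 ± 0.13, SE, adjusted p = 0.018). Rsad2, an antiviral enzyme, was at 8.49 and 9.36 against 7.18 and 8.49 (-1.09 ± 0.19, SE, adjusted p = 0.0356). It fell in each replicate, although its CX3CR1high replicate 2 was level with CX3CR1low replicate 1. Ifit1, another interferon-induced gene, differed by -0.34 without passing.

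**Figure D4:**
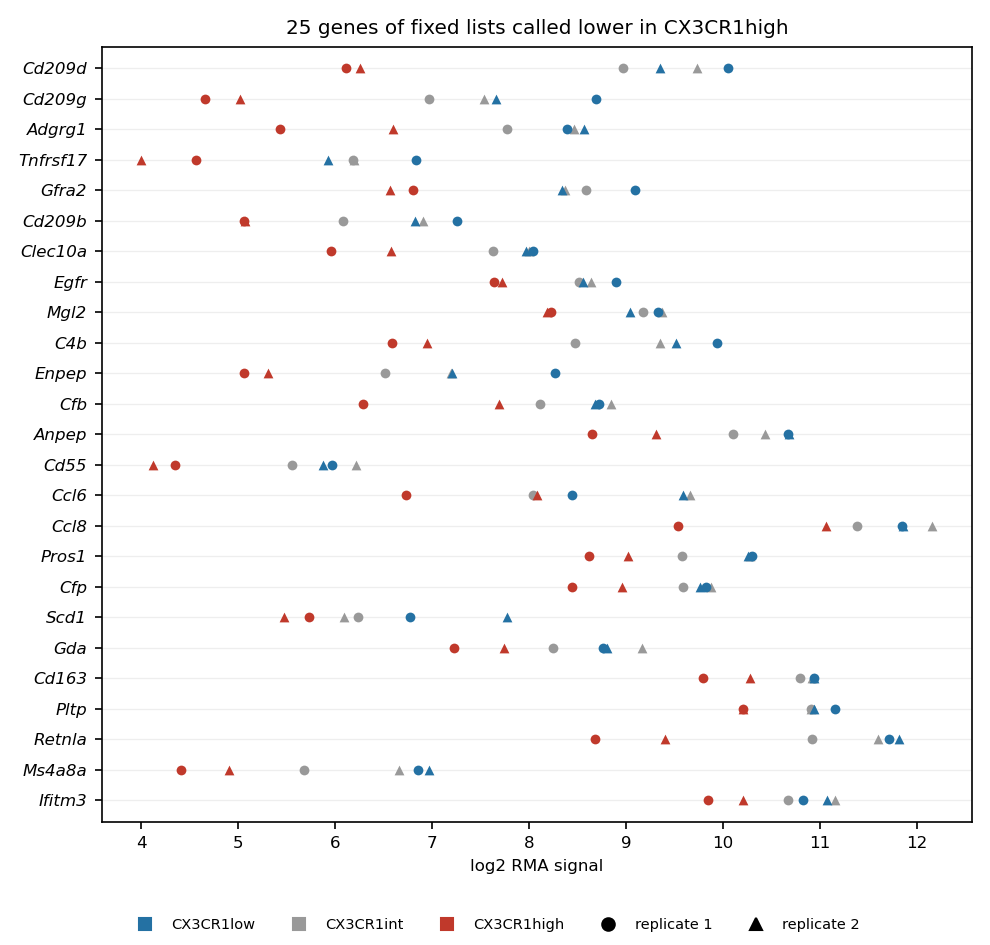
Log2 signals of 25 called genes in each sample, for the same kinds of list (circles, replicate 1, triangles, replicate 2). Only called genes without overlap were drawn, which leaves out Rsad2. By that choice both CX3CR1high samples (red) lie to the left of both CX3CR1low samples (blue). The CX3CR1int samples (grey) mostly lie near the CX3CR1low ones.

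Markers of other skin cells were also lower in CX3CR1high samples. All 7 tested mast cell markers were lower without overlap, against 18.4% of all genes, and 3 were called. Their mean signal was 6.22 and 5.99 in CX3CR1low, at 5.61 and 5.66 in CX3CR1int and at 4.77 and 4.73 in CX3CR1high samples. Cpa3, the carboxypeptidase of mast cell granules, was at 7.80 and 7.08, then 6.41 and 6.51, then 3.82 and 4.32, and fell at least 8.60-fold, since it was dim in CX3CR1high cells. Mcpt4 and Cma1, both granule proteases, were at 8.12 and 7.58 against 5.72 and 5.47, and at 6.66 and 6.23 against 4.63 and 4.53. Kit, the receptor that mast cells need, was at 5.34 and 5.21 against 4.93 and 4.82 and did not pass. Of the 12 mast cell markers 5 were too dim to be tested.

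Keratinocyte markers, 19 tested, had 13 lower without overlap, against 18.4% of all genes, and 3 called lower, 1 of them also without the block. The mean of the list was 6.66 and 7.26 in CX3CR1low, at 6.19 and 6.43 in CX3CR1int and at 6.15 and 6.30 in CX3CR1high samples. Krt10, a keratin of the upper epidermis, was at 9.42 and 10.15 against 8.27 and 8.38 (-1.46 ± 0.19, SE, adjusted p = 0.0146). Krtdap was at 9.21 and 10.58 against 7.98 and 8.83, and Krt17 at 6.51 and 7.65 against 5.63 and 6.24. Fibroblast markers, 20 tested, had 13 lower without overlap, against the same share, and 6 called lower. Without the block 0 fibroblast markers were called. The mean of that list was 6.80 and 7.39 in CX3CR1low, at 6.51 and 6.74 in CX3CR1int and at 6.32 and 6.49 in CX3CR1high samples. Col1a2, a chain of type I collagen, was at 10.88 and 11.56 against 10.17 and 10.04 (-1.11 ± 0.21, SE, adjusted p = 0.0492). Col1a1, Col3a1, Col6a1, Dcn and Pcolce, all genes of the collagen matrix, fell by 1.06, 1.07, 1.29, 1.24 and 1.01. A second, dimmer probe set differed by -0.195 for Col6a1 and by -1.055 for Col1a2. CX3CR1low replicate 2 had the highest mean of both lists. With the marker covariate, the mean of both lists, 21 genes were called, 13 of them among the 154. In it the median was 0.19 for integrins, beside 0.06, and -2.24 for Cd209 lectins, beside -1.27. Col1a2, Dcn and Scd1 then had differences of 0.36, 0.13 and 0.46. Col1a2 and Dcn are themselves part of the covariate, so their values in this fit are no separate observation. The part of these markers in the other differences was not tested gene by gene.

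Monocyte markers were split. Of 12 tested, 2 were called lower, Ly6c2 and Gda, and 0 higher, with 6 above and 6 below 0. Ly6c2, an antigen of inflammatory monocytes, was at 6.48 and 7.11 in CX3CR1low, at 7.35 and 7.90 in CX3CR1int and at 3.36 and 4.92 in CX3CR1high samples. It fell at least 5.50-fold, since its mean in CX3CR1high cells was dim. Ccr2, the monocyte chemokine receptor, pointed the other way, at 5.56 and 7.15 against 7.92 and 7.26 (1.24, adjusted p = 0.3). Langerhans and dendritic cell markers had 1 call of 12, Ccr7. Cd207, the langerin of Langerhans cells, was at 6.72 and 6.48 against 7.57 and 8.07 (1.22, adjusted p = 0.0818). Of the lymphoid, neutrophil, endothelial, and melanocyte and Schwann cell markers tested, 12, 8, 9 and 8 genes, limma called none. An unadjusted p below 0.05 was found for 4, 1, 1 and 4 of them, beside 1752 of all 15529 genes tested.

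Several lists gave no call by limma, with or without the block. No gene was called among 30 of pattern recognition, 35 macrophage transcription factors, 22 nuclear receptors and 22 immediate early genes. An unadjusted p below 0.05 was found for 9, 8, 2 and 6 of them, beside 1752 of all 15529 genes tested. Without a call were also 20 genes of glycolysis and hypoxia, 23 of oxidative phosphorylation and 28 of endoplasmic reticulum stress. These lists had 4, 1 and 5 genes at such an unadjusted p. Within the lists without a call, Nlrp3, the inflammasome sensor, was at 8.68 and 8.43 against 9.59 and 9.50 (0.99, adjusted p = 0.0602). Klf4, a transcription factor of monocytes and resident macrophages, was at 10.29 and 10.11 against 9.57 and 9.29 (-0.77, adjusted p = 0.0739). Maf, which keeps macrophages mature, was at 11.27 and 10.77 against 11.37 and 11.09. A p above the threshold does not show that such genes were alike, and the median standard error of a difference was 0.1865.

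**Figure D5:**
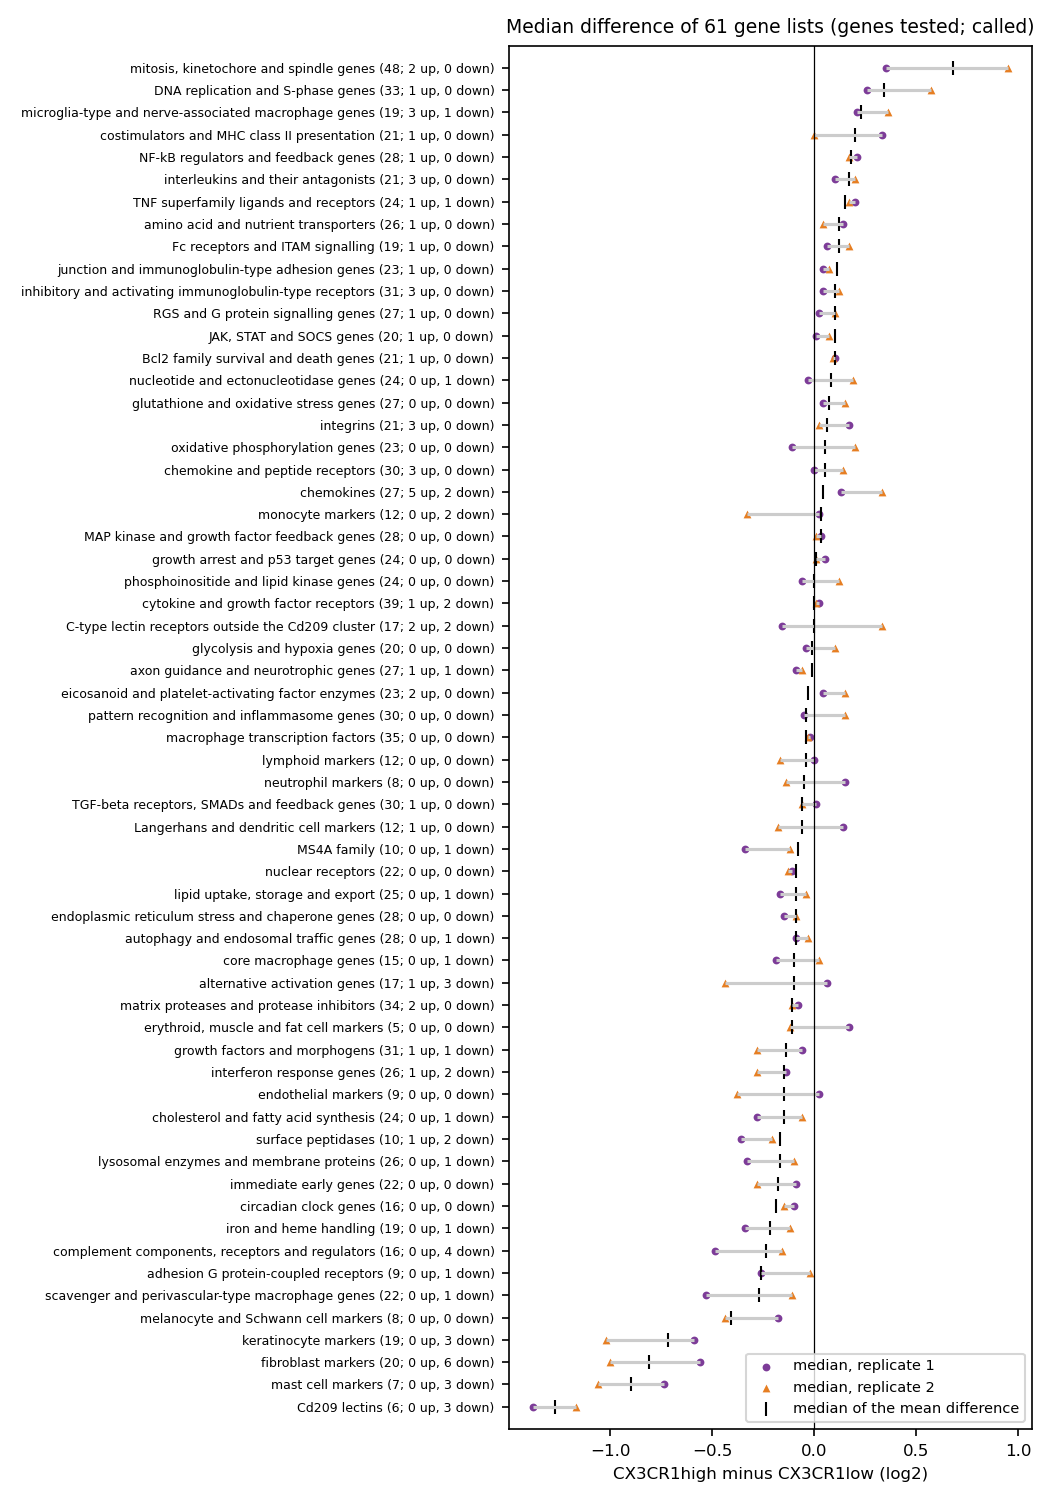
Median CX3CR1high minus CX3CR1low difference (log2) over the tested genes of each of 61 lists, in replicate 1 (circles), replicate 2 (triangles) and for the mean difference (bars), with the number tested and called in brackets. Mitosis genes lie farthest right (0.68), and Cd209 lectins, mast cell, fibroblast and keratinocyte markers farthest left.

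Of the 154 called genes 73 were on no list. Among rises, Cd93, a receptor of myeloid and endothelial cells, was at 7.0 and 6.90 in CX3CR1low, at 8.04 and 7.17 in CX3CR1int and at 8.46 and 8.42 in CX3CR1high samples (1.49 ± 0.23, SE, adjusted p = 0.026). Sla, an adaptor that dampens receptor signalling, was at 6.80 and 7.07 against 8.51 and 8.14 (1.39 ± 0.21, SE, adjusted p = 0.0239). Cd52, a small glycoprotein of leukocytes, was at 7.66 and 8.96 against 9.68 and 9.77. Acp5, the tartrate-resistant acid phosphatase, was at 7.18 and 7.12 against 8.17 and 8.24. Arsb, a lysosomal sulfatase, was at 8.92 and 8.48 against 10.17 and 9.72, and a second probe set differed by 0.845. The rises of Acp5 and Arsb went against the direction of most lysosomal genes of the list. Rnf180, a ubiquitin ligase, rose 2.80-fold, and Plxdc2, a membrane protein, 2.39-fold. Atad5, which unloads the replication clamp, rose from dim levels of 4.29 and 4.33 to 5.09 and 5.62.

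Among falls on no list, Atp1b1, a subunit of the sodium pump, was at 6.74 and 7.85 in CX3CR1low, at 5.87 and 7.46 in CX3CR1int and at 4.71 and 5.54 in CX3CR1high samples (-2.17 ± 0.22, SE, adjusted p = 0.005). Gstp1, a glutathione transferase, was at 8.31 and 8.65 against 6.0 and 6.91. Ednrb, a receptor of endothelins, was bright at 10.93 and 10.99 and fell to 9.35 and 9.96, with CX3CR1int samples at 10.17 and 11.12. Tslp, a cytokine best known from epithelium, was at 8.12 and 7.92 against 6.64 and 6.56 (-1.42 ± 0.17, SE, adjusted p = 0.0101). Fgfr1, a receptor of fibroblast growth factors, was at 8.39 and 8.32 against 6.88 and 6.75. Kmo, an enzyme of tryptophan breakdown, was at 6.54 and 5.88 against 5.26 and 4.92. Aspn, Bgn, Ecm2 and Chad, genes of the extracellular matrix, fell by 1.76, 1.3, 1.44 and 1.14, and Krt2, an epidermal keratin, by 1.38. These last genes share the matrix and epidermal character of the fibroblast and keratinocyte markers above.

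A pair of called probe sets carried microRNA names and were chosen after their values were seen. Mir222 was at 4.31 and 5.99 in CX3CR1low, at 3.90 and 4.97 in CX3CR1int and at 3.07 and 3.97 in CX3CR1high samples, and fell at least 1.76-fold, as it was dim in CX3CR1high cells. Mir1898 was at 6.37 and 6.52, then 6.92 and 6.66, then 5.39 and 5.23 (-1.14 ± 0.19, SE, adjusted p = 0.0317). Their mature sequences from RefSeq (GRCm38.p6) are shown with bases 2 to 8, the seed by which a microRNA finds its targets, in capitals.
mmu-miR-222-3p: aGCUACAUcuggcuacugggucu
mmu-miR-1898: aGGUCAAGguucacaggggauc
The seeds differ. An array of amplified RNA does not tell the mature microRNA from its precursor.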

How the data were processed

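The authors deposited log2 signals of Affymetrix arrays. The submitters' processing notes name RMA and Affymetrix Expression Console 1.4. The RNA came from sorted cells and was amplified with a NuGEN kit per the labels' protocols. The values were used as given. Of 34390 probe sets, 23521 had exactly 1 gene symbol, 1814 several and 9055 none. The first kind entered, the brightest standing for each of 1082 genes with several. Genes whose mean was below the 30th percentile (4.335) were left out as dim. A group mean below that level gives a lower bound on the fold. Two-sided tests used R 4.3.3 with limma 3.58.1, with a mean per subset over all 6 samples, the replicate number as a block, an intensity trend in the variance prior and Benjamini-Hochberg adjustment over 15529 genes. No library depth exists for arrays, and their number limits the precision.

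The labels number the samples of each subset 1 and 2 and speak of 2 litters, without saying that a number marks the same litter in every subset, which the block assumes. Deviations from subset means of samples with the same number correlated at 0.146, 0.136 and 0.178 across genes for the 3 pairs of subsets. Without genes of the X and Y chromosomes these values were 0.124, 0.111 and 0.157. The block was part of the definition of the comparison and did not rest on these correlations. On simulated data the fit recovered 8.96%, 71.6% and 90.9% of genes changed by 1, 2 and 3 log2 units. Of 116 calls there, 2 were false. Simulated data cannot show whether the block and the modelled spread hold for the real samples. These figures therefore do not give the share of false calls in the main fit.

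The comparison, the 62 gene lists and the tests were chosen with earlier results of these data known. Named genes were, per list, up to 6 called without overlap between the compared samples, up to 4 bright and up to 3 with the largest differences among those not called, and the 20 largest rises and falls on no list, plus 11 genes always given. Rsad2 and Rnase2a, which overlap, are named as exceptions. Clone symbols and small RNA names were passed over unless said. Leaving out samples without the block was an alternative chosen after seeing the data. The other alternatives concerned the block, the samples in the fit, the dim filter, the choice of probe set, the normalisation, the variance prior and a marker covariate. The result of 1 of the lists is not reported here.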

Additional observations from a re-analysis of the deposited data

How the results depend on the processing

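The counts of calls depended on the block and on the samples. Without the replicate block, 62 genes were called in place of 154, 33 higher and 29 lower. With the 4 compared samples alone, limma called 0 genes, 0 higher and 0 lower, beside 1496 at an unadjusted p below 0.05, and Cx3cr1 kept its difference of 3.59 but not its call (adjusted p = 0.233). This fit has 1 residual degree of freedom. Leaving out each sample with the block gave 0 to 8 calls, 0 to 2 higher and 0 to 6 lower, and Cx3cr1 differences of 2.71 to 4.47. Without the block it gave 13 calls (4 higher, 9 lower) and 15 (5, 10) without CX3CR1low replicate 1 or 2, 39 (18, 21) without either CX3CR1int sample, and 0 and 16 (4, 12) without CX3CR1high replicate 1 or 2. Cx3cr1 then lost its call without replicate 1 of CX3CR1low (3.02) or CX3CR1high (3.07). No filter on dim genes gave 87 calls, 43 higher and 44 lower. Testing every probe set on its own gave 49, 20 higher and 29 lower. The keratinocyte and fibroblast covariate gave 21, 7 higher and 14 lower, and a Cx3cr1 difference of 6.88. Signs were reversed in it for Scd1 (0.46) and for Col1a2 (0.36) and Dcn (0.13), which are themselves part of that covariate. In these settings no other called gene changed its direction. The stricter dim filter, the mean of probe sets, centring, quantile normalisation, no trend and the robust prior gave 131 to 163 calls. The cause of these changes was not tested.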

Other observations

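Probe sets outside the comparison were tested in the same way on their own. Of 4874 bright enough probe sets without a gene symbol 7 were called, of 1275 with several symbols 3, and of 993 further probe sets of genes already represented 1.

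Some called genes lay outside the naming rule and were chosen after their values were seen. Ckap2l and Knl1, genes of the spindle and kinetochore, and Cks2, a partner of cyclin-dependent kinases, were on neither cell division list and rose by 1.04, 1.02 and 0.98 on the log2 scale. Of the probe sets with the symbol Cks2, 3 had the same difference of 0.98 and a further one 0.81. Ifitm6 and Klf9 fell by 1.07 and 1.10. Wfdc17, a secreted inhibitor of proteases in macrophages, fell by 1.0 from 11.48 and 11.30 to 10.30 and 10.48.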
